A study of Homo sapiens with 4 samples.

Results

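BAX, BBC3, AEN, TP53INP1 and CDKN2A, 5 genes tied to the tumour suppressor p53, were followed among 14884 genes named on whole-transcript arrays. Each was taken by its symbol in the platform annotation, where each has 1 probe set, and all 5 were measured. They were picked because their values differed between these same arrays, so their differences are described here without a test. The cells were the human colon carcinoma line LS411N-5FU-R, derived from LS411N by selection for resistance to 5-fluorouracil. Of 4 arrays, 2 held RNA of control cells grown without verticillin A (0 nM) and 2 held RNA of cells grown in 50 nM of this fungal compound, both for 3 days. The medium and culture time were the same in both groups, both groups carry the resistance, and no array of the parent line or of a second resistant line was used here. Separate cultures are not stated for the arrays of a group, so any p-value here reflects how far the 2 arrays of a group differed, a spread that may be technical.

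p53 is a transcription factor that is stabilised after DNA damage and other stress and that switches on genes for cell cycle arrest, DNA repair and cell death. BAX and BBC3 act at the mitochondrion. BBC3, also called PUMA, is a BH3-only protein that blocks the guardian proteins of the BCL2 family, and BAX is the effector that opens the outer mitochondrial membrane. AEN is a nuclease that enhances apoptosis, and TP53INP1 is a stress-induced protein that helps to activate p53 in the nucleus and binds proteins of the ATG8 family in autophagy. CDKN2A encodes p16INK4a, an inhibitor of the kinases CDK4 and CDK6 that hold RB inactive, and, from another start and reading frame, p14ARF, an inhibitor of MDM2, the ligase that degrades p53. MDM2, CDKN1A and CDKN2B have no probe set in the annotation used and were not analysed here.

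The deposited log2 values ran from 2.60 to 14.47, with array medians of 4.59 to 4.62 and upper quartiles of 7.01 to 7.05. The median absolute difference between arrays over all probe sets was 0.118 for the control pair, 0.10 for the treated pair and 0.141 to 0.152 for pairs across groups. Of 16 colon epithelial markers 11 were measured. EPCAM (10.94 to 11.13), KRT8, KRT18, KRT19, VIL1 (5.51 to 6.22) and CDX2 (5.19 to 5.53) lay above the array medians on all 4 arrays. KRT20 and GPA33 lay around the medians, and CDX1, CEACAM5 and CEACAM6 under them on all 4 arrays. Summed on a linear scale, the 11 came to 4036 and 4276 in control and 4080 and 4032 in treated arrays, with KRT19 called higher and VIL1 lower, calls that were lost with any one array left out. The part of these markers in the results below was not tested. Of markers of other cell types, the 3 measured of leukocytes, 2 of fibroblasts and 4 of endothelium had group means of 3.42 to 4.62, and 0 were called by limma at an adjusted p under 0.05, with 0 at an unadjusted p under 0.05. Their linear sums were 45 and 45 (control) and 46 and 45 (treated) for leukocytes, 31 and 35 against 35 and 37 for fibroblasts, and 68 and 72 against 64 and 67 for endothelium.

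The members split in direction. BAX, AEN and TP53INP1 were higher with verticillin A on both arrays, and BBC3 and CDKN2A were lower on both. Since whole cultures were measured, fewer cells that hold a transcript and less of it per cell cannot be told apart. Over all 14884 genes both treated arrays lay above both control arrays in 25.7% and below both in 29.1%. The 3 members of the first kind and the 2 of the second were chosen on this contrast, so nothing is read from these counts.

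BAX, the mitochondrial pore former, had log2 values of 5.99 and 6.32 in control and 7.09 and 6.89 in treated cells. Its groups did not overlap, but the control arrays stood 0.329 apart, the widest gap within a group among the members. The mean went from 6.16 ± 0.23 to 6.99 ± 0.14 (SD, n = 2 per group), a log2 change of 0.83 ± 0.13 (SE from limma) or 1.78-fold. Whether the choice of genes drew on replicate spread is not known, so the spreads of the members are only described. Replicate spread was also large for BAX, with a pooled SD of 0.191. Among the 500 genes nearest to it in mean level, 89.4% had a smaller pooled SD, and their median was 0.0977. Leaving out 1 array at a time gave log2 changes of 0.67 (without control replicate 1) to 0.999 (without control replicate 2).

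BBC3, the BH3-only partner upstream of BAX, went the other way. Its values were 6.61 and 6.70 in control and 6.30 and 6.24 in treated cells. Both treated arrays were lower than both control arrays, with a gap of 0.308 between the nearest ones, 3.51 times the wider range within a group. The means were 6.66 ± 0.06 and 6.27 ± 0.04 (SD, n = 2 per group), a log2 change of -0.38 ± 0.07 (SE), 1.30-fold lower and the smallest difference of the 5. Its pooled SD of 0.0536 was under the median of 0.0946 of the 500 genes nearest in level.

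TP53INP1 had the widest gap between groups among the members, relative to the range within a group. This ratio comes from the values that led to its choice, so it is only described. Control arrays read 8.77 and 8.77 and treated arrays 9.50 and 9.56, so the gap of 0.726 between groups was 12.1 times the wider range within a group. Means were 8.77 ± 0.0051 and 9.53 ± 0.04 (SD, n = 2 per group), a log2 change of 0.76 ± 0.07 (SE) or 1.69-fold. Of the members, TP53INP1 had the smallest pooled SD, 0.0303, against a median of 0.0534 for the 500 genes nearest in level.

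AEN, the apoptotic nuclease, read 7.09 and 7.21 in control and 7.78 and 7.73 in treated cells. The treated arrays were close together and both above the control pair, with a gap of 0.52. Means of 7.15 ± 0.09 and 7.76 ± 0.04 (SD, n = 2 per group) gave a log2 change of 0.61 ± 0.08 (SE), 1.52-fold. Its pooled SD of 0.0667 compared with a median of 0.0785 among the 500 genes nearest in level.

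CDKN2A, the source of both p16INK4a and p14ARF, read 6.13 and 6.29 in control and 5.77 and 5.70 in treated cells. The treated arrays were the lower ones and the nearest arrays of the 2 groups were 0.36 apart. The means were 6.21 ± 0.12 and 5.73 ± 0.05 (SD, n = 2 per group), a log2 change of -0.48 ± 0.08 (SE) or 1.39-fold lower. A single probe set stands for the gene, so these values do not separate the p16INK4a and p14ARF transcripts. On all arrays CDKN2A lay above the array median and under the upper quartile. No detection calls were used, and near background a fold can understate the difference in RNA.

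**Figure D1:**
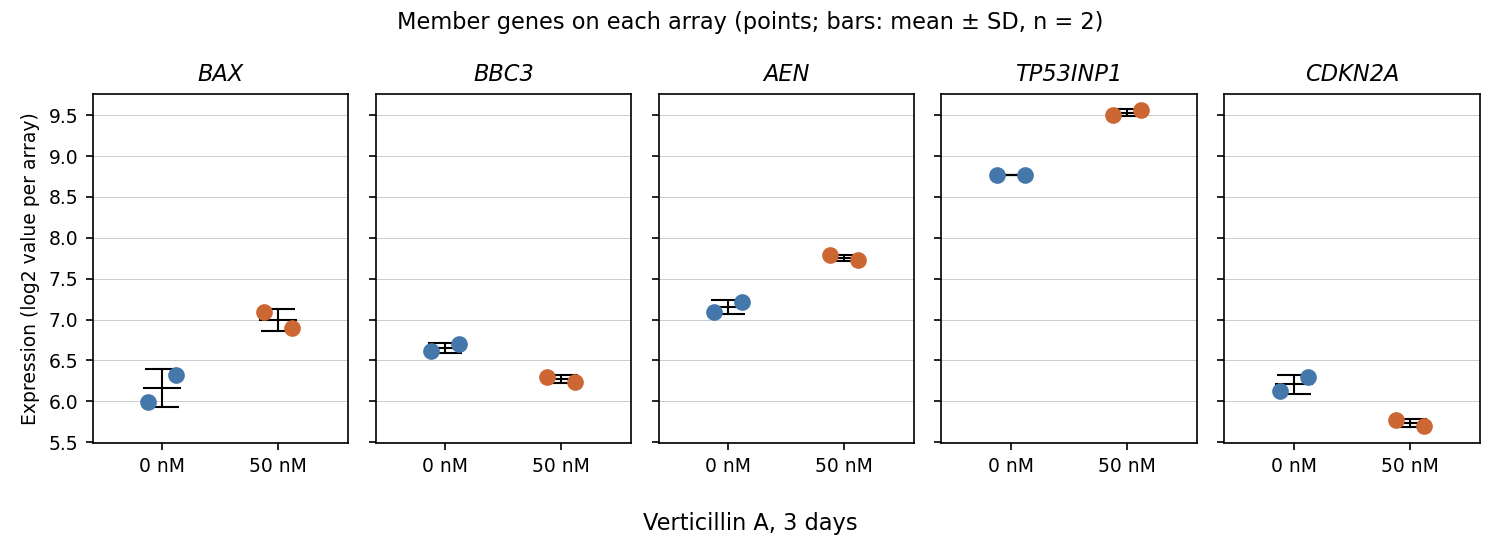
Log2 expression values (vertical axis) of the 5 members on each of 4 arrays, with control cells (0 nM) in blue and cells with 50 nM verticillin A in orange. Points are arrays and bars the mean ± SD of 2 arrays. The groups do not overlap for any member: BAX, AEN and TP53INP1 are higher and BBC3 and CDKN2A lower with verticillin A, and BAX has the widest spread within groups. Levels of different genes are not comparable.

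The start regions of the members differ in base content and in the short motifs they hold. RefSeq promoter windows (GRCh38.p14) were found for 4 members by symbol, that is for BAX, BBC3, AEN and CDKN2A. The 250 bases before the annotated start are shown 5′ to 3′ for the members whose windows held matches. Capitals mark matches on either strand. The motifs searched were the p53 half-site (the consensus decamer) and an E2F site spelled TTTNNCGC. The GC box was spelled GGGCGG. The CCAAT box is named by its letters and shows in capitals as ATTGG where it lies on the other strand. The E-box was spelled CACGTG, which reads the same on both strands. None of the printed matches overlaps another.
BAX (chr19:48954625-48954874, + strand): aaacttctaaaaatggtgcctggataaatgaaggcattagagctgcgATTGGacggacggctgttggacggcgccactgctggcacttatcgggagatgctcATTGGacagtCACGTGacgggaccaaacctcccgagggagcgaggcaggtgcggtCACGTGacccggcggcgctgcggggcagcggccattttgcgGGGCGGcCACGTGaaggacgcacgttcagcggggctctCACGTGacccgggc
BBC3 (chr19:47232668-47232917, - strand): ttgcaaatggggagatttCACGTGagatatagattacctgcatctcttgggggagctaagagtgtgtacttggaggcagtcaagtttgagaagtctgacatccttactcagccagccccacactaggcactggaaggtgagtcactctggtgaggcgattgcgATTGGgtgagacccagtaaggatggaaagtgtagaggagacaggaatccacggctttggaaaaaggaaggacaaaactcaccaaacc
AEN (chr15:88621090-88621339, + strand): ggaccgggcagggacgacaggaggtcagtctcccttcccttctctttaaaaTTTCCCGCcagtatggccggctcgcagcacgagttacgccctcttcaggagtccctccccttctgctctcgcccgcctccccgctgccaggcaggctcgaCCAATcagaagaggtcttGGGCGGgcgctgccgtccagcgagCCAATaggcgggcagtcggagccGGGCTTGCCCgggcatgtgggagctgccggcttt
BAX is shown for its E-boxes, BBC3 for the contrast with BAX, and AEN as the only one of these windows with a p53 half-site match.

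The BAX window held 4 E-boxes, with their first bases at -138, -93, -45 and -14 from the start site, and BBC3 held 1, at -232. An E-box of this kind occurred in 6.49% of 27305 promoter windows of this length, and 4 or more occurred in 5 of them (0.0183%). This motif was added after the BAX sequence had been read. AEN held 1 p53 half-site match, GGGCTTGCCC at -34 to -25, and 1 E2F match, TTTCCCGC at -199, motifs that occurred in 5.53% and 5.93% of windows. The windows of BAX, BBC3 and CDKN2A held 0 matches to either, which says only that these letters are not in these bases, since p53 sites can lie farther away or in introns. BAX and AEN each had 2 CCAAT boxes and 1 GC box, BBC3 had 1 CCAAT box, and CDKN2A had none of the motifs. CCAAT boxes occurred in 33.0% and GC boxes in 42.3% of windows.

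The BBC3 window was poor in CpG dinucleotides, with 4, against 25 in BAX, 20 in AEN and 24 in CDKN2A and a median of 11 over all windows. Its G and C content was 49.2%, against 62.8% in BAX, 66.0% in AEN, 66.8% in CDKN2A and a median of 58.0%. A single window per gene was used, so for CDKN2A it does not cover the starts of both p16INK4a and p14ARF. The arrays do not show which start was in use, and a match is no evidence of binding.

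Other p53 target genes were called higher more often than lower. Of 70 listed targets 40 were measured, 36 of them besides the members, and of these 36 limma called 11 higher and 3 lower at an adjusted p under 0.05, while 22 did not pass. That is 38.9%, against a background of 8.65% of all 14884 genes called (3.55% higher and 5.1% lower). This list and the gene lists below were drawn up with earlier results of these data known. Their shares are therefore only described, and nothing is concluded from an excess over the background. Dim genes are called less often, and among the 7442 brighter genes the background was 14.6%, with 13 of the 29 listed targets among them called. The median log2 change of the 36 was 0.18, against -0.0058 over all genes.

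SFN, PCNA and PLK2 had the largest rises among the 36 targets besides the members. SFN, which encodes the arrest protein 14-3-3 sigma, read 8.69 and 8.88 in control and 9.87 and 9.84 in treated cells, 2.10-fold higher (log2 change 1.07 ± 0.09, adjusted p = 0.00855). PCNA, the sliding clamp of DNA replication and repair, rose by 0.87 ± 0.07 (adjusted p = 0.00909). PLK2, a polo-like kinase, read 8.70 and 8.84 against 9.62 and 9.54, 1.75-fold higher (adjusted p = 0.0113). In all 3 genes both treated arrays lay above both control arrays. RPS27L, a ribosomal protein paralog, rose by 0.79 ± 0.09 (adjusted p = 0.0125) and TRIAP1, a small inhibitor of apoptosis, by 0.69 ± 0.08 (adjusted p = 0.0139). The remaining rises, named so that every call is given and chosen after their values were seen, were THBS1 (0.65), TIGAR (0.57), SESN1 (0.56), PLK3 (0.55), IGFBP3 (0.50) and IER5 (0.45), as log2 changes.

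The lower targets were few and SESN2 stood out. SESN2, a sestrin that restrains mTORC1 signalling, read 8.62 and 8.70 in control and 7.46 and 7.35 in treated cells, 2.39-fold lower (log2 change -1.25 ± 0.08, adjusted p = 0.00497). Its paralog SESN1 was one of the genes that rose. GDF15, a stress cytokine, fell by 0.47 ± 0.07 (adjusted p = 0.024), and KITLG, the ligand of KIT, by 0.35 ± 0.07 (adjusted p = 0.0393), both also named after their values were seen. The 3 targets with the highest mean values among those that missed the threshold were CCNG1 (log2 change 0.13 ± 0.07, adjusted p = 0.34), EI24 (0.33 ± 0.08, 0.0732) and RRM2B (0.17 ± 0.09, 0.286). PMAIP1, the BH3-only gene known as NOXA, read 9.12 and 9.16 against 9.09 and 9.13 (log2 change -0.03 ± 0.07, adjusted p = 0.836), and its groups overlapped.

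These counts rest on all 4 arrays. With either control array left out limma called 0 of the 36, as it called 0 of all genes (smallest adjusted p 0.0525 and 0.0502, while 3715 and 3528 genes had an unadjusted p under 0.05). Without verticillin A replicate 1 it called 2 higher and 1 lower, and without verticillin A replicate 2 it called 3 higher and 1 lower. Leaving out an array also leaves 1 residual degree of freedom.

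**Figure D2:**
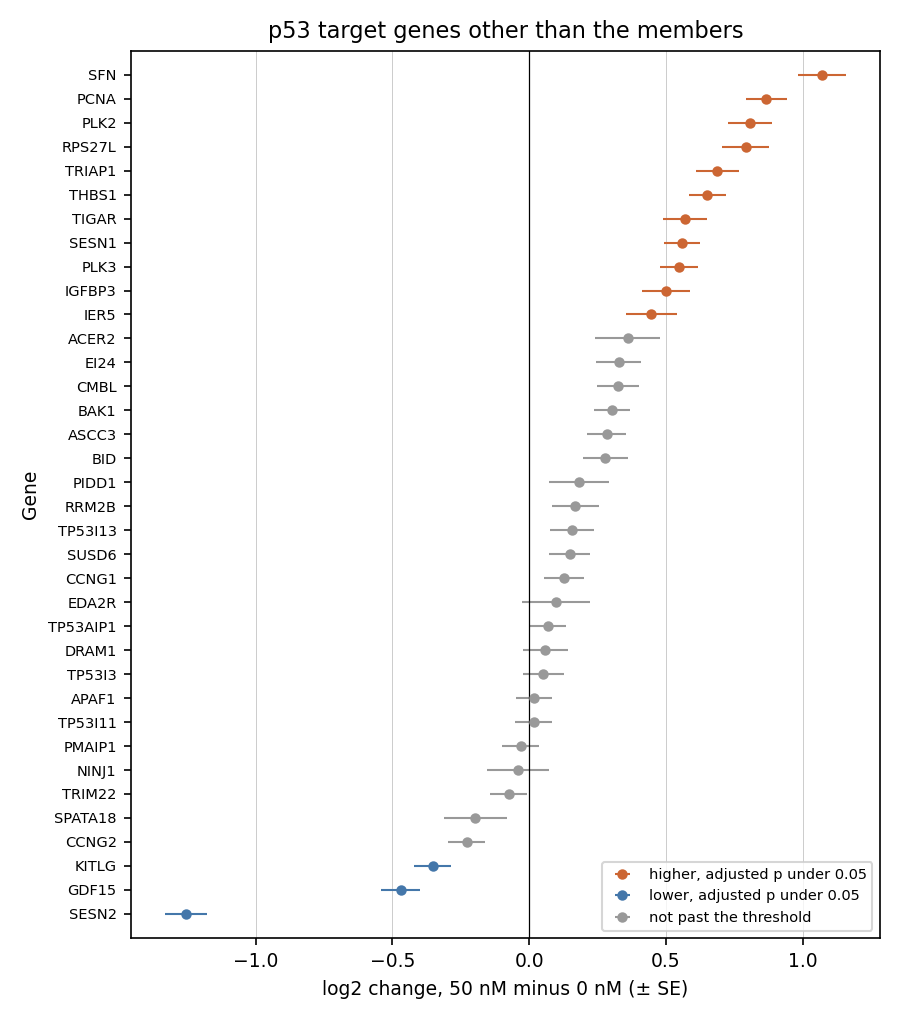
Log2 change with verticillin A (horizontal axis, ± SE from limma, 2 arrays per group) of the 36 measured p53 target genes besides the members, sorted by change. Orange points passed an adjusted p of 0.05 upward (11), blue ones downward (3) and grey ones did not pass (22). SFN is at the top and SESN2 at the bottom.

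Of 43 listed genes of the p53 family and its regulators 28 were measured, and 1 was called higher and 1 lower, 7.14% against the background of 8.65%. The 28 were all among the brighter genes, of which 14.6% were called. MDM4, the MDM2 relative that holds p53 inactive, read 9.87 and 9.92 in control and 9.57 and 9.57 in treated cells, 1.25-fold lower (log2 change -0.33 ± 0.07, adjusted p = 0.0454). The other call was TRIAP1, which is also among the targets above. The paralog TP73 read 6.42 and 6.35 against 6.47 and 6.38, with a change of 0.04 ± 0.07 (adjusted p = 0.797), and was named for its role after its values were seen. The 3 genes of highest mean value that did not pass were TRIM28 (0.34 ± 0.10, adjusted p = 0.096), RPL11 (0.04 ± 0.07, 0.757) and USP7 (0.02 ± 0.07, 0.895). The list's median change was -0.017. The MDM4 call was lost without any one of the arrays, with 0 genes of this list called in each case.

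Of 48 listed genes of mitochondrial apoptosis 33 were measured, 31 of them besides BAX and BBC3. Of the 31, limma called 3 higher and 0 lower, with 8 more at an unadjusted p under 0.05, and the median change was 0.05. The 3 make 9.68%, close to the background of 8.65%. Of the 31, 24 were among the brighter genes, with 12.5% called against 14.6% of all brighter genes. BNIP3, a BH3-like protein of mitophagy that hypoxia induces, rose by 0.78 ± 0.08 (adjusted p = 0.0113). BIRC5, which encodes survivin, an inhibitor of apoptosis that also serves in mitosis, rose by 0.53 ± 0.11 (adjusted p = 0.0424). VDAC3, a channel of the outer membrane, rose by 0.44 ± 0.07 (adjusted p = 0.0282). With any one array left out 0 of the 31 were called.

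The other effector, guardian and BH3-only genes given next, and APAF1, did not pass. They were named for their roles after their values were seen. BAK1, the second effector, read 7.75 and 7.77 in control and 8.07 and 8.06 in treated cells (log2 change 0.30 ± 0.07, adjusted p = 0.052). Its groups did not overlap, and its change was below that of BAX. The guardian BCL2 read 6.14 and 6.51 against 5.996 and 6.01, with a change of -0.32 ± 0.13 (adjusted p = 0.199). MCL1, another guardian, had a change of -0.20 ± 0.07 (adjusted p = 0.137), and BCL2L1, which encodes BCL-XL, one of 0.07 ± 0.07 (adjusted p = 0.633). Among BH3-only genes BID had 0.28 ± 0.08 (adjusted p = 0.0994), BAD 0.21 ± 0.07 (0.118) and BCL2L11, which encodes BIM, -0.16 ± 0.07 (0.23). APAF1, the scaffold of the apoptosome, had 0.02 ± 0.07 (adjusted p = 0.899). With BCL2L1, the genes of highest mean value that missed the threshold were VDAC1 (0.27 ± 0.07, adjusted p = 0.071) and BNIP3L (-0.13 ± 0.07, 0.292). Missing the threshold with 2 arrays per group does not show that these genes were the same in both groups.

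Of 33 listed genes of the pathway from CDKN2A to RB and E2F, 23 were measured, 22 of them besides CDKN2A. Of the 22, limma called 4 higher and 1 lower, or 22.7% against 8.65% of all genes and 14.6% of the brighter ones, with a median change of 0.20. CCNE1, the E cyclin that drives entry into S phase, read 8.14 and 8.18 in control and 8.92 and 8.96 in treated cells, 1.72-fold higher (adjusted p = 0.00909). E2F1, the factor that RB restrains, read 7.75 and 7.83 against 8.51 and 8.47, 1.63-fold higher (adjusted p = 0.0113). For both genes the arrays of a group were close together and the groups lay far apart. TFDP1, a partner of E2F factors, rose by 0.41 ± 0.07 (adjusted p = 0.0267) and E2F7 by 0.39 ± 0.07 (0.0373), while the second partner, TFDP2, fell by 0.41 ± 0.07 (0.0282). The 3 genes of highest mean value that did not pass were CDK4 (-0.13 ± 0.07, adjusted p = 0.305), RB1 (-0.17 ± 0.07, 0.175) and EZH2 (-0.05 ± 0.07, 0.729). Without either control array 0 of the 22 were called, and without either treated array 1 was called higher and 0 lower.

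**Figure D3:**
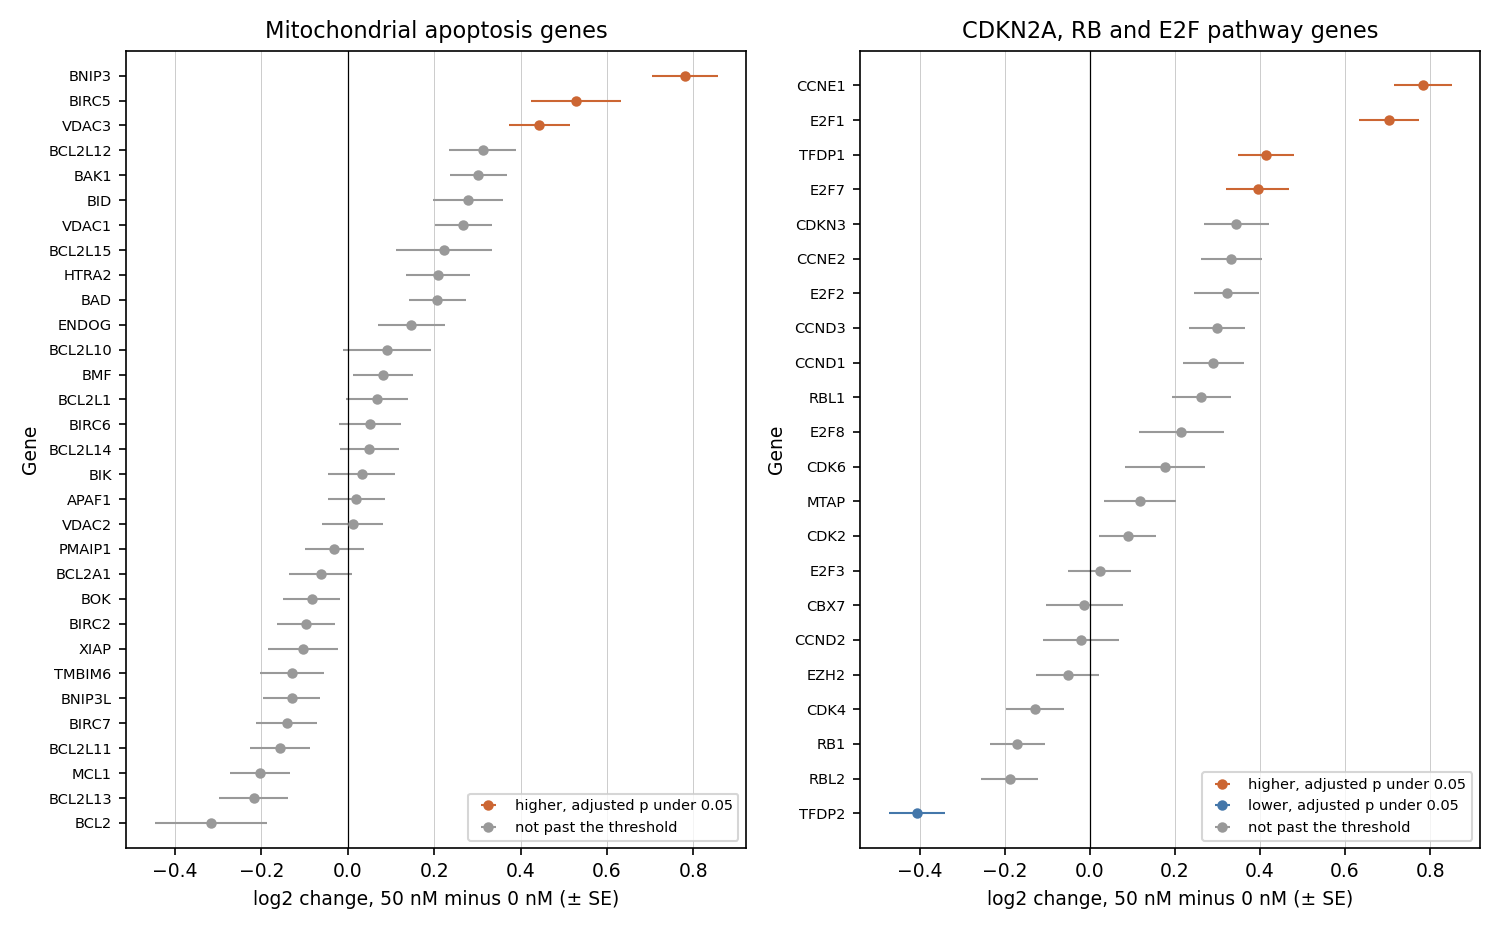
Log2 change with verticillin A (horizontal axis, ± SE from limma, 2 arrays per group) of 31 mitochondrial apoptosis genes (left) and 22 genes of the CDKN2A, RB and E2F pathway (right), without the members. Orange points were called higher, blue lower and grey ones did not pass an adjusted p of 0.05. On the left 3 genes are orange and BAK1 and BCL2 are grey, and on the right CCNE1 and E2F1 lie at the top and TFDP2 at the bottom.

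TP53INP1 and AEN were also set beside genes with which they share a role. Of 26 genes of autophagy around TP53INP1, 19 others were measured, and 0 were called higher and 2 lower (median change 0.01). That is 10.5%, against 8.65% of all genes. Of the 19, 17 were among the brighter genes, with 11.8% called against 14.6% of all brighter genes. MAP1LC3B, the LC3 protein of autophagosomes, read 7.65 and 7.84 against 7.16 and 7.17 and fell by 0.58 ± 0.09 (adjusted p = 0.0235). CALCOCO2, an autophagy receptor, fell by 0.44 ± 0.07 (adjusted p = 0.0259). Both missed the threshold with any one array left out. The paralog TP53INP2, named after its values were seen, read 6.82 and 7.20 in control and 7.04 and 6.92 in treated cells, so its groups overlapped (-0.03 ± 0.14, adjusted p = 0.932). Those of highest mean value that did not pass, VMP1, GABARAP and ATG5, had changes of 0.11, 0.01 and 0.03. Of 19 exonuclease and apoptotic nuclease genes listed with AEN, 10 others were measured and limma called 0, against 8.65% of all genes. Among the brighter genes were 7 of the 10, with 0 called against 14.6% of all brighter genes. So few genes cannot show whether the share differs from the background. Of the 10, 2 had an unadjusted p under 0.05 in limma, and changes ran from -0.13 to 0.27. Those of highest mean value were ERI2 (0.12 ± 0.07), ERI1 (-0.12 ± 0.07) and EXD2 (0.05 ± 0.07).

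The 3 measured genes on each side of every member along its chromosome were examined next, in the order of their RefSeq starts, which gave 30 neighbours. limma called 1 higher and 3 lower, against a background of 8.65%. CDKN2A, on chromosome 9, had a pair of called neighbours, both lower. MIR31, a microRNA gene beyond MTAP, read 9.46 and 9.76 in control and 8.87 and 8.93 in treated cells (log2 change -0.71 ± 0.11, adjusted p = 0.0267). LINC01239, a long non-coding RNA beyond DMRTA1, read 6.02 and 5.74 against 5.07 and 4.84 (-0.92 ± 0.13, adjusted p = 0.0208). Between them, MTAP, the methylthioadenosine phosphorylase gene, had a change of 0.12 ± 0.08 (adjusted p = 0.453). CDKN2B-AS1, the antisense RNA of the locus, read 6.05 and 6.23 against 5.87 and 5.67, a change of -0.37 ± 0.11 with adjusted p = 0.0941.

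Beside BAX, on chromosome 19, GYS1, the muscle glycogen synthase gene, read 6.94 and 6.92 in control and 7.25 and 7.43 in treated cells and rose by 0.41 ± 0.08 (adjusted p = 0.045). On its other side DHDH did not pass (-0.19 ± 0.11, adjusted p = 0.383). Beside BBC3, also on chromosome 19, the microRNA gene MIR3190 was called lower (-0.48 ± 0.10, adjusted p = 0.0475), but the mean of its 3 probe sets gave -0.17 and an adjusted p of 0.207. SAE1, on the other side of BBC3, had -0.10 ± 0.08 (adjusted p = 0.514). None of the 6 neighbours of AEN on chromosome 15, or of the 6 of TP53INP1 on chromosome 8, was called. Nearest to the threshold in limma was the E cyclin CCNE2 beside TP53INP1 (0.33 ± 0.07, adjusted p = 0.0518). Close to it near AEN were MIR7-2 (-0.36 ± 0.08, 0.052), MRPS11 (0.42 ± 0.09, 0.0523) and DET1 (-0.37 ± 0.08, 0.0527), in mixed directions. MIR7-2 has 2 probe sets, and the one with the higher mean was used. With any one array left out, GYS1, MIR31, LINC01239 and MIR3190 all missed the threshold.

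**Figure D4:**
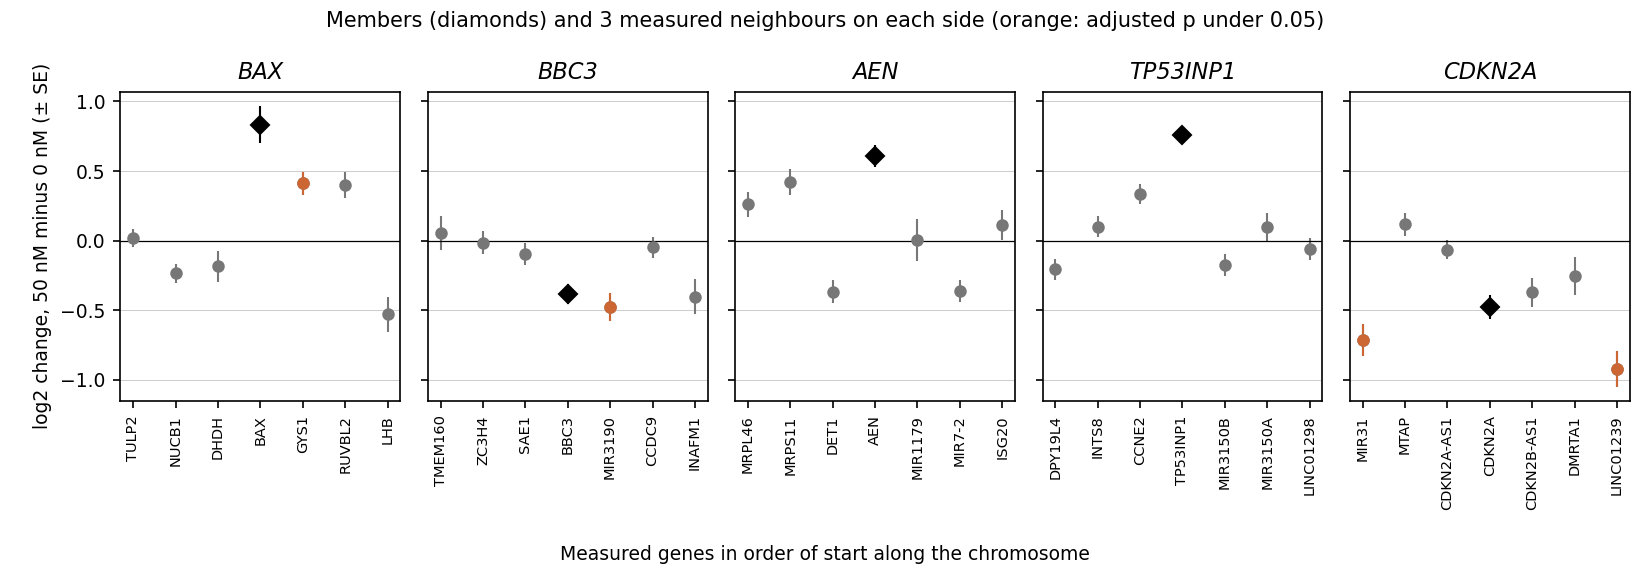
Log2 change with verticillin A (vertical axis, ± SE from limma, 2 arrays per group) of each member (black diamond) and of the 3 measured genes on each side in chromosomal order (horizontal axis, not to distance). Orange points passed an adjusted p of 0.05, and grey ones did not. GYS1 beside BAX is called higher, and MIR3190 beside BBC3 and MIR31 and LINC01239 near CDKN2A are called lower.

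Likeness of pattern was measured over the 4 arrays as the root mean square difference between the per-array deviations of a pair of genes from their own means, on the log2 scale. Nearest to BAX were MRPS12 (0.0619), HSPA2 (0.0719) and the p53 target PLK2 (0.0819). BBC3 was nearest to TMEM186 (0.0072), PROX1 (0.0101) and ESCO1 (0.0113). AEN was nearest to CTSV (0.0073), ROMO1 (0.0165) and SLC68A1 (0.0195). TP53INP1 was nearest to CLU (0.0127), SYTL3 (0.0137) and CCNE1 (0.0164), and CDKN2A to DGAT2 (0.0076), PON3 (0.0127) and COA5 (0.0175). BAX thus had more distant nearest genes than the other members, beside its wider spread. Among the members themselves, BBC3 and CDKN2A were 0.0542 apart and AEN and TP53INP1 0.095 apart, whereas BAX and BBC3 were 0.616 apart. With 4 arrays many genes share such a pattern, so these distances describe only likeness.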

How the data were processed

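RNA of 4 LS411N-5FU-R samples (2 control, 2 with 50 nM verticillin A) was measured on Affymetrix whole-transcript arrays, from 250 ng of total RNA per the labels' protocols. The deposited values are log2 expression values, 1 per probe set, made with GCRMA per the submitters' processing notes, a method that corrects background and normalizes arrays, so a change in total RNA per cell would not show. The log2 scale was read from the value range. The sources used here do not give its version, annotation, build or filters.

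Of 53617 probe sets, 16098 carry 1 gene symbol, 0 carry several and 37519 are unnamed here. All 16098 matched RefSeq (GRCh38.p14) by gene identifier, giving 14884 genes. The probe set with the highest mean stood for each of 779 genes with several. limma 3.58.1 in R 4.3.3 (lmFit, eBayes) was fitted to all 14884 genes with treatment as the only term and without a filter on low values. Adjusted p is Benjamini-Hochberg over all genes, with a threshold of 0.05, and log2 changes are treated minus control with moderated SE (2 residual and 3.43 prior degrees of freedom). No p is given for the members.

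The members and gene lists were chosen with earlier results of these data known. Named genes were the members, up to 6 called and the 3 uncalled genes of highest mean per list, the 3 genes most like each member, and MDM2, CDKN1A, CDKN2B and PMAIP1. A further planned gene is not reported here. Neighbours and promoter motifs were added after the values were seen. On simulated data over 14884 genes with 200 changed (10 runs), limma recovered 12.1% of genes changed by 0.5 and 90.5% of those changed by 1, and 4.23% of calls were false. In the deposited data limma called 1287 genes, more than the 200 changed in the simulation. With more calls the adjusted threshold is met at a larger unadjusted p, so these shares do not give the recovery in these data. Alternatives were a replicate block, quantile normalization, median centring, the mean of probe sets, leaving out the dimmest 50% of genes, an intensity trend and leaving out each array.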

Additional observations from a re-analysis of the deposited data

How the results depend on the processing

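All 5 members kept their direction under all alternatives run, but much of this was fixed in advance. Their groups did not overlap, so leaving out 1 array could not reverse a direction. A replicate block, the mean of probe sets, leaving out dim genes and an intensity trend gave the same changes as the main fit. Centring the arrays on their medians moved TP53INP1 beyond its replicate spread, to 0.80, and leaving out 1 array at a time gave 0.55 to 0.67 for AEN, 0.67 to 0.999 for BAX, -0.43 to -0.34 for BBC3, -0.56 to -0.39 for CDKN2A and 0.73 to 0.79 for TP53INP1. Counts moved more, and the cause was not tested. The labels number the replicates without saying that a number marks a shared culture or batch, and the differences between replicates 1 and 2 in the 2 groups correlated at -0.016 over all probe sets. With a replicate block, calls went from 528 higher and 759 lower to 228 and 364, calls in the RB and E2F list to 2 higher and 0 lower, in the mitochondrial apoptosis list to 1 higher, and among p53 regulators to 0 lower, and 13 of 31 named called genes lost their call.

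Without the dimmest genes there were 1070 higher and 1329 lower calls, with 3 and 3 among p53 regulators, 7 and 1 in mitochondrial apoptosis and 9 higher in the RB and E2F list. With an intensity trend the counts were 1067 and 1361, with 3 and 2, 6 and 1, and 9 and 2 in these lists. Quantile normalization gave 2 lower p53 regulators, 5 higher apoptosis genes and 8 higher RB and E2F genes, and median centring gave 0, 6 and 9. Median centring turned the share of lower calls from 59.0% to 47.1%, as 750 higher and 668 lower. The p53 targets went to 15 higher and 2 lower with median centring. The mean of probe sets gave 2 higher p53 regulators. Leaving out 1 array gave 0 to 52 higher and 0 to 105 lower calls over all genes, 0 to 3 higher and 0 to 1 lower p53 targets, 0 to 1 higher RB and E2F genes and 0 lower ones, and 0 in either direction among p53 regulators and mitochondrial apoptosis genes. Counts of the other lists were not recomputed. IER5 lost its call after quantile normalization (adjusted p = 0.0554), KITLG and MDM4 after median centring (0.0524 and 0.0517), and MIR3190 after both. Precision is limited by having 2 arrays in each group.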
